A study of Homo sapiens with 8 samples.

Results

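The genes described here are 40 genes of mitosis and the spindle, chosen by name: regulators of entry into mitosis, the spindle checkpoint, the chromosomal passenger complex, the kinetochore, spindle motors and cytokinesis. They and the further lists below were chosen with earlier results of these data known. Their rows were found in the deposited count table through Ensembl identifiers and GENCODE symbols, and all 40 were present among its 60725 genes. They were measured by mRNA-seq in HAP1, an adherent near-haploid human cell line derived from a leukemia line. Every library came from the same clonal HAP1 line, cSC9, which expresses dCas9-KRAB, a catalytically inactive Cas9 fused to a repressor domain that silences the promoter to which a guide RNA directs it. Cells were transduced with a lentiviral guide RNA against NELFE (3 libraries), NELFB (2 libraries) or, as control, ADAM22 (plasmid pLB187, 3 libraries), and polyadenylated RNA was collected 144 h later. NELFE and NELFB encode subunits of the negative elongation factor, NELF, which holds RNA polymerase II in a paused state shortly after initiation, and the experiment asked which genes respond to its loss. Because the line is 1 clone and the control cells carry a guide RNA as well, the comparisons are between guides, within 1 genetic background.

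A cell builds up the products of these genes before it divides, and breaks many of them down again as it leaves mitosis. CDK1 with cyclin B starts mitosis. Kinetochores attach chromosomes to the microtubules of the spindle, the checkpoint holds back the anaphase-promoting complex until all are attached, and the passenger complex and a set of kinesins then act through to the cut between the daughter cells. Transcription of most of these genes peaks in G2 and mitosis, and their promoters often hold a CCAAT box, bound by NF-Y, and the short CHR element (TTTGAA or TTTAAA), through which the DREAM complex represses them in resting cells and complexes of MYBL2 and FOXM1 activate them later. In RNA from a whole culture, fewer cells in the phase that expresses a gene and less RNA of it per cell cannot be told apart.

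The guide targets were examined first. NELFE mRNA was at 50.6, 49.4 and 47.8 CPM (read counts scaled to a common, TMM-normalized library size) in the control libraries, at 2.41, 2.37 and 2.97 in the NELFE knockdown, and at 61.3 and 56.5 in the NELFB knockdown. NELFB mRNA was at 74.5, 72.7 and 78.7 CPM in control cells, at 63.4, 64.1 and 63.9 in the NELFE knockdown, and at 3.07 and 2.76 in the NELFB knockdown. Each target was thus low in the libraries labelled for it. ADAM22 was at 11.2 to 13.7 CPM in the control libraries, below the 29.8 to 47.6 CPM of the other libraries. Of the blood lineage markers examined, PTPRC, SPI1, GATA1, CD33 and CD3E stayed at or below 0.388 CPM in every library. CD34 was at 0.0435 to 0.133 CPM in control cells and at 0.259 to 2.78 CPM in the knockdowns, and was the only one of these with enough reads to be tested (log2 fold change 3.51, adjusted p = 0.0142).

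The libraries held from 22037423 to 24444185 counted reads. Replicates were not equally alike. By a chi-square statistic per gene, NELFE knockdown replicates 1 and 2 differed by 4.25, and each differed from replicate 3 by 21.1 and 21.4. Control replicates 2 and 3 differed by 5.76, and control replicate 1 differed from them by 17.1 and 29.4. NELFE knockdown replicate 3 and control replicate 1 therefore stood apart from their groups, and the counts of members and of the further lists are also given without them.

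The promoters of 4 members are shown as examples. HMMR and CDC20 had the largest and the next largest decrease in log2 fold change. PLK1 holds a CCAAT box and both forms of the CHR, and NDC80, the only upregulated member, holds none of them. The examples do not stand for the members that fell. KIF2C was downregulated and also holds none of them, and AURKB was downregulated and holds a CCAAT box but no CHR. Each sequence is the 250 bases before the first base of the RefSeq transcript on GRCh38.p14, plus strand, 5′ to 3′. The capitals mark the CCAAT box and the CHR letters given above, on either strand. HMMR lies at chr5:163460382-163460631, CDC20 at chr1:43358731-43358980, PLK1 at chr16:23678639-23678888 and NDC80 at chr18:2571307-2571556.
HMMR: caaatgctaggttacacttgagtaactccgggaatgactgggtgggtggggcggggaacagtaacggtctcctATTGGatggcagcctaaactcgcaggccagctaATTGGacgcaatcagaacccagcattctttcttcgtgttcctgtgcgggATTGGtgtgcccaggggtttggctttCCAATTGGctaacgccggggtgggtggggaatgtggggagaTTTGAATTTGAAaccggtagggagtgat
CDC20: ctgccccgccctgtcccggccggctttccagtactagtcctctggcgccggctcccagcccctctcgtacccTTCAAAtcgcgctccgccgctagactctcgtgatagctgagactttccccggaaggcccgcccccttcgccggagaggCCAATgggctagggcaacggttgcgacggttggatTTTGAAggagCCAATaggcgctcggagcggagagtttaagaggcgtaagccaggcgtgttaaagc
PLK1: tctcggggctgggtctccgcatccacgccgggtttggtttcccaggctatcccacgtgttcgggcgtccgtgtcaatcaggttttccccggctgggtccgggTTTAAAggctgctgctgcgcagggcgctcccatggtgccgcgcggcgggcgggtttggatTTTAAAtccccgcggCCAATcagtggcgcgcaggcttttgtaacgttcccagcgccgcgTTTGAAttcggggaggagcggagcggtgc
NDC80: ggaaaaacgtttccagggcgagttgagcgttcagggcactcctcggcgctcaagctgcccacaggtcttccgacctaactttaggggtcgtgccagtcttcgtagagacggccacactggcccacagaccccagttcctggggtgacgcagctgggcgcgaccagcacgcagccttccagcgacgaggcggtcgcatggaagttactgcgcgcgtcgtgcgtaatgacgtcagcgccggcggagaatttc

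The HMMR promoter held 5 matches to CCAAT, of which the last and the one before it share 2 bases, followed by TTTGAA at 28 and again at 22 bases before the start. In CDC20 the matches nearest to the start were TTTGAA at 65 and CCAAT at 55 bases before it. In PLK1 a CCAAT at 73 bases was followed by TTTGAA at 29 bases. Promoters of 34 members were in the RefSeq table; UBE2C, AURKA, TPX2, BIRC5, TTK and BUB3 were not matched. CCAAT was found on either strand in 76.5% of the 34, against 33.0% of the 27305 genes in the table, and TTTGAA or TTTAAA in 70.6% against 22.1%. Both a CCAAT and one of these CHR letters were in 61.8% of the members and 7.85% of all genes. The E2F sites TTTCCCGC and TTTGGCGC were in none and in 2.94% of the members, against 1.42% and 0.553% of all genes, and GGCGG, a GC box, in 94.1% against 55.5%.

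The members were expressed at high levels in control cells. In TPM, which also divides the reads by exon length, the highest were TOP2A at 684 ± 35.4 TPM, CCNB1 at 619 ± 68.9 TPM and CDC20 at 509.7 ± 38.1 TPM (SD, n = 3), and the median member was at 204 TPM. The lowest were KIF18A, a kinesin that dampens chromosome movements, at 53.3 ± 3.07 TPM, CDC25C, a phosphatase that activates CDK1, at 53.2 ± 8.84 TPM, and UBE2C, the ubiquitin-conjugating enzyme of the anaphase-promoting complex, at 5.69 ± 1.497 TPM (SD, n = 3). UBE2C had 1.24, 1.95 and 2.18 CPM in control cells, 1.54, 1.64 and 2.32 CPM in the NELFE knockdown, and 1.83 and 2.12 CPM in the NELFB knockdown, so the groups overlapped. No other gene of the table overlaps its exons and no near-identical copy of at least 65 bases was found for it, and what keeps its count so low was not tested. Reads over exons shared with another gene are not counted either, which concerns 15.2% of the exon length of NUSAP1 (shared with OIP5), 12.8% of PLK1, 10.2% of BUB1B (PAK6), 9.24% of CCNA2 (EXOSC9) and 8.80% of CDC25C (FAM53C).

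When the 5 knockdown libraries were compared with the 3 control libraries, 19 of the 40 members were downregulated, 1 was upregulated and 20 did not pass the test (edgeR's quasi-likelihood test, adjusted p under 0.05 over 16367 tested genes). Over all tested genes, 12.7% were downregulated and 13.3% upregulated, 26.0% in all. Among the 6706 tested genes with a control level of at least that of the lowest member other than UBE2C, these shares were 19.1% and 10.4%. The median log2 fold change was -0.25 over the members and -0.002 over all tested genes, and 37 of the 40 members had a negative value. All 5 knockdown libraries lay below all 3 control libraries in 17 of the 40 members, and above them in 1. Of the 16367 tested genes, 2289 were separated from control in this way below it and 2430 above it. The changes were mostly small: the 19 downregulated genes fell by 15% to 53.2%, with a median of 24.1%, and only HMMR, CDC20 and AURKB among them exceeded 1.5-fold. The count moved with single libraries. It was 23 without control replicate 1, 28 without NELFE knockdown replicate 3, 11 without control replicate 2 and 14 without control replicate 3. In the same fits 12.6%, 15.9%, 7.90% and 8.91% of all tested genes were downregulated.

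**Figure D1:**
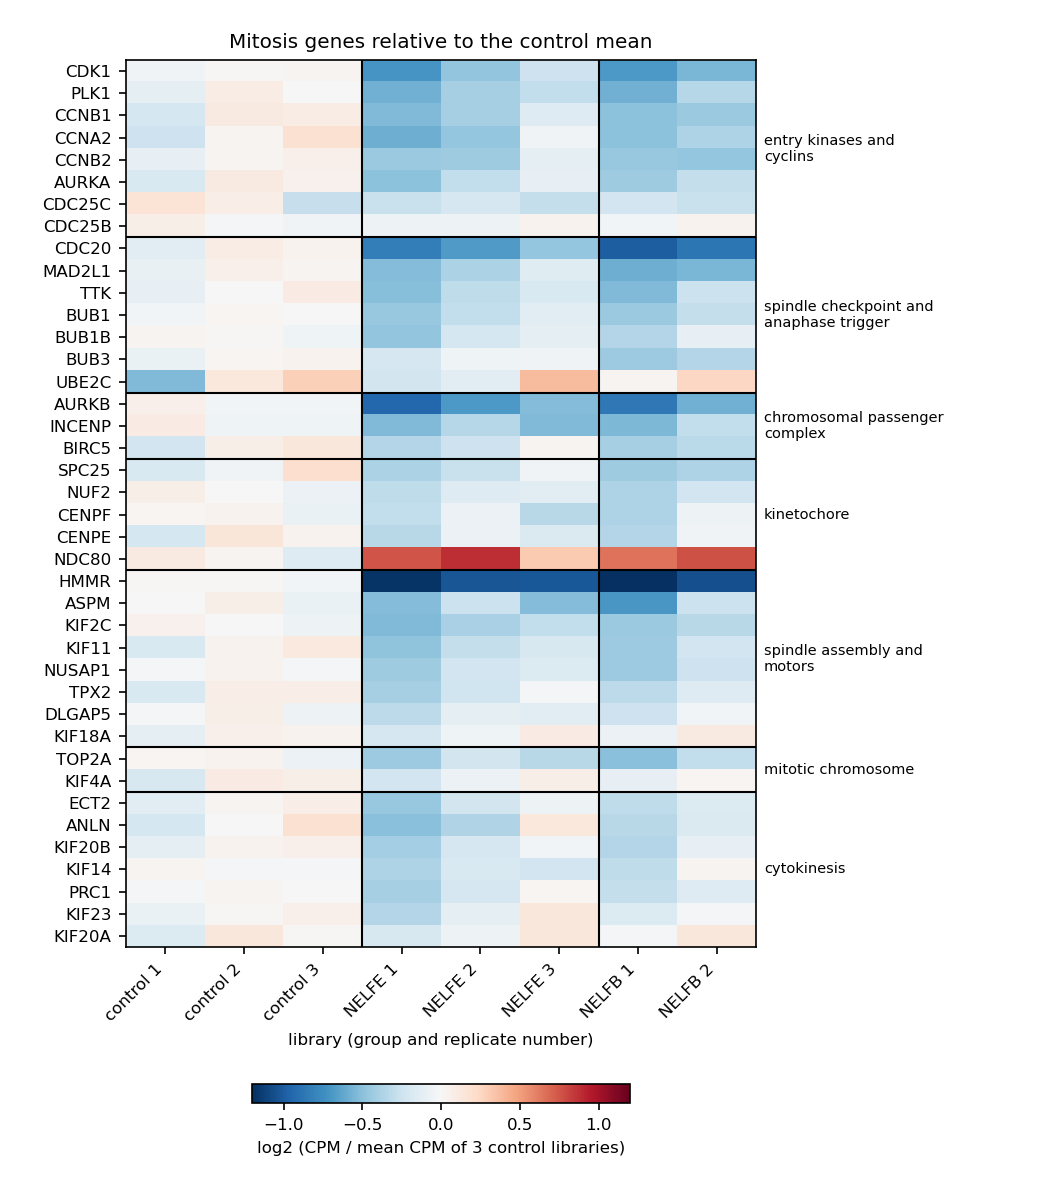
Log2 ratio of the CPM of each of the 40 mitosis and spindle genes (rows, by role) to its mean over the 3 control libraries, in each of the 8 libraries (columns); blue is lower and red higher. The knockdown columns are mostly blue, palest in NELFE knockdown replicate 3, HMMR is the darkest row, and NDC80 is the red row.

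In the plot of log2 ratios by library, the median member was at -0.43, -0.23 and -0.13 of the control mean in NELFE knockdown replicates 1, 2 and 3, and at -0.41 and -0.26 in the NELFB knockdown. The control libraries themselves were at -0.09, 0.04 and 0.03. The knockdown libraries thus all had a lower median than the control libraries, and NELFE knockdown replicate 3 was closest to them. Of the 40 members, 39, 39 and 30 were below the control mean in the NELFE libraries and 38 and 33 in the NELFB libraries, against 27, 7 and 16 in the control libraries. The summed level of all members was 9005, 9732 and 9484 CPM in control cells, 7107, 8061 and 8422 CPM in the NELFE knockdown, and 7157 and 8109.6 CPM in the NELFB knockdown, without overlap.

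Among the kinases, phosphatases and cyclins that start mitosis, 6 of 8 were downregulated, with a median log2 fold change of -0.38. Beside this stand 12.7% of all tested genes, and 19.1% of those at the level of the members. The count was also 6 without control replicate 1 and without NELFE knockdown replicate 3, and 3 without control replicate 2. In these fits 12.6%, 15.9% and 7.90% of all tested genes were downregulated. CDK1, the kinase that drives entry into mitosis (ENSG00000170312.15, chromosome 10, 60778331 to 60794852), was at 234, 243 and 247 CPM in control cells, 148, 174 and 204 CPM in the NELFE knockdown, and 149.7 and 165 CPM in the NELFB knockdown. All knockdown libraries were below all control libraries, with replicate 3 of the NELFE knockdown nearest to them, and the log2 fold change was -0.52 (SE 0.10, adjusted p = 0.00300). PLK1, a kinase of centrosome maturation and spindle assembly (ENSG00000166851.14, chromosome 16, 23677656 to 23690367), was at 239.9, 274 and 259 CPM in control cells, 173, 196 and 209.8 CPM in the NELFE knockdown, and 173 and 203 CPM in the NELFB knockdown. It did not overlap either and showed a log2 fold change of -0.43 (SE 0.08, adjusted p = 0.00334).

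The cyclins moved less evenly. CCNB2, a cyclin B that partners CDK1, had 175, 191 and 195 CPM in control cells, 137, 139 and 173 CPM in the NELFE knockdown and 136 CPM in each of the NELFB libraries. Its groups were separated by little more than 1 CPM, since NELFE knockdown replicate 3 came close to control replicate 1, and the log2 fold change was -0.37 (SE 0.09, adjusted p = 0.0101). CCNB1, the main cyclin B, had 317, 395 and 391 CPM in control cells, 254, 279 and 331 CPM in the NELFE knockdown, and 261 and 271 CPM in the NELFB knockdown. Here NELFE knockdown replicate 3 was above control replicate 1 (log2 fold change -0.40, SE 0.10, adjusted p = 0.0130). Without control replicate 2 or control replicate 3, CCNB1 no longer passed the test (adjusted p = 0.0677 and 0.0507, edgeR). CCNA2, cyclin A, and AURKA, a kinase of the spindle poles, were also downregulated, with log2 fold changes of -0.38 (adjusted p = 0.0416) and -0.31 (adjusted p = 0.0310), and overlapped the control range. Both were called in only 2 of the 8 fits that leave out 1 library, those without control replicate 1 and without NELFE knockdown replicate 3, and the adjusted p reached 0.168 for CCNA2 and 0.138 for AURKA (edgeR).

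The CDC25 phosphatases, which remove the inhibitory phosphates from CDK1, did not pass the test. CDC25C had 48.3, 45.7 and 35.6 CPM in control cells, 36.0, 37.5 and 35.4 CPM in the NELFE knockdown, and 36.8 and 35.9 CPM in the NELFB knockdown. Control replicate 3 lay among the knockdown libraries, and the log2 fold change was -0.25 (adjusted p = 0.0685). Without that library it was -0.37 (adjusted p = 0.00854, edgeR). CDC25B showed a log2 fold change of -0.02 with a 95% interval that included 0 (adjusted p = 0.886).

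**Figure D2:**
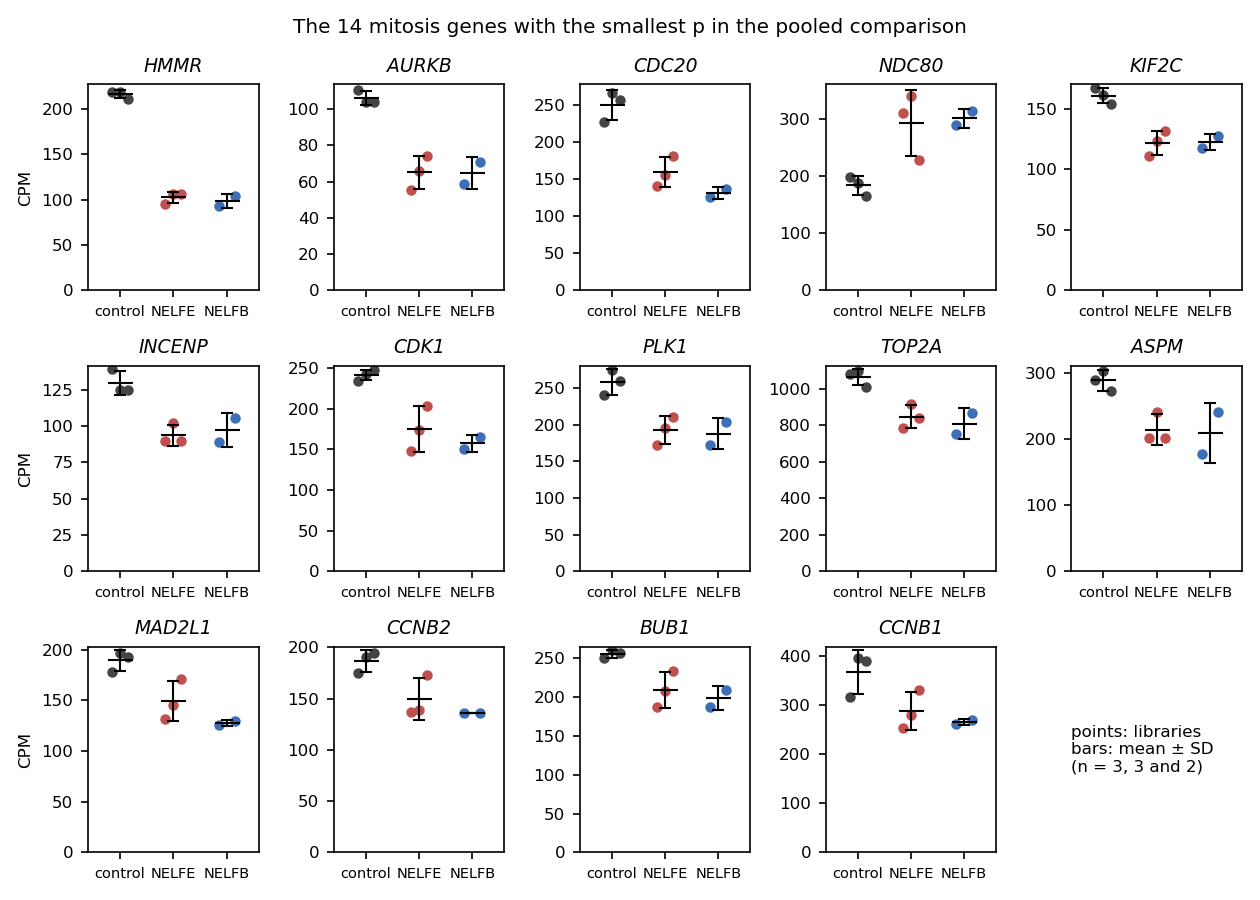
CPM (linear axis from 0) of the 14 members with the smallest p in the comparison of knockdown with control, by group; points are libraries, and bars the mean ± SD (n = 3 control, 3 NELFE and 2 NELFB). In 13 of the panels the knockdown libraries lie lower and in the NDC80 panel higher; the points overlap the control range only for CCNB1. The panels were chosen by p from the same values, a choice that favors separated groups.

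Of the genes of the spindle checkpoint and the trigger of anaphase, 4 of 7 were downregulated, with a median log2 fold change of -0.32. The count was 4 without control replicate 1, 6 without NELFE knockdown replicate 3 and 2 without control replicate 2. Of all tested genes, 12.7% were downregulated in the main fit, and 12.6%, 15.9% and 7.90% in these fits. CDC20, the activator of the anaphase-promoting complex that the checkpoint sequesters (ENSG00000117399.13, chromosome 1, 43358981 to 43363203), was at 227, 266 and 258 CPM in control cells, 141, 156 and 182 CPM in the NELFE knockdown, and 126 and 137 CPM in the NELFB knockdown. The highest knockdown library was well below the lowest control library, and the log2 fold change was -0.75 (SE 0.11, adjusted p = 0.000763). MAD2L1, the checkpoint protein that binds CDC20, was at 178, 197 and 193 CPM in control cells, 132, 146 and 171 CPM in the NELFE knockdown, and 126 and 129.8 CPM in the NELFB knockdown. It fell by 0.43 on the log2 scale (SE 0.10, adjusted p = 0.00808), with no overlap.

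BUB1, a checkpoint kinase at the kinetochore, was at 249.8, 261 and 257 CPM in control cells, 187, 208 and 233 CPM in the NELFE knockdown, and 188 and 209 CPM in the NELFB knockdown. These values did not overlap (log2 fold change -0.32, SE 0.08, adjusted p = 0.0117), but without control replicate 2 the call was lost (adjusted p = 0.0513, edgeR). TTK, the kinase that starts the checkpoint, showed a log2 fold change of -0.35 (adjusted p = 0.0146), a call that was lost without control replicate 2 or 3 (adjusted p up to 0.0629, edgeR). BUB1B, which forms the inhibitory complex with MAD2L1 and CDC20, was below all control libraries in all 5 knockdown libraries and just missed the threshold (log2 fold change -0.24, adjusted p = 0.0564). BUB3 showed a log2 fold change of -0.21 (adjusted p = 0.124), and UBE2C, whose level is described above, one of 0.08 (adjusted p = 0.826).

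Of the chromosomal passenger complex, which corrects faulty attachments and later acts in cytokinesis, the kinase AURKB and its scaffold INCENP were downregulated. All 3 members were so without control replicate 1 or NELFE knockdown replicate 3. Of all tested genes, 12.7% were downregulated in the main fit, and 12.6% and 15.9% without these libraries, in that order. AURKB (ENSG00000178999.12, chromosome 17, 8204733 to 8210600) was at 111, 104 and 104 CPM in control cells, 55.4, 65.9 and 74.0 CPM in the NELFE knockdown, and 58.5 and 71.0 CPM in the NELFB knockdown. There was a wide gap between the groups, and the log2 fold change was -0.71 (SE 0.09, adjusted p = 0.000563). INCENP was at 139, 125 and 125 CPM in control cells, 89.5, 102 and 89.5 CPM in the NELFE knockdown, and 89.0 and 106 CPM in the NELFB knockdown. It did not overlap and fell by 0.45 on the log2 scale (SE 0.08, adjusted p = 0.00239). BIRC5, survivin, showed a log2 fold change of -0.25 (adjusted p = 0.113) with overlapping groups.

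The kinetochore held the only upregulated member. Of its 5 members 1 was downregulated, or 20%, which is near the 19.1% given above for tested genes at the level of the members. The count was 2 without control replicate 1 or NELFE knockdown replicate 3, and 3 with no filter on low counts. It was 0 without control replicate 2, control replicate 3, NELFE knockdown replicate 1 or either NELFB library. NDC80, the microtubule-binding subunit of the complex of the same name (ENSG00000080986.12, chromosome 18, 2571557 to 2616635), was at 199, 189 and 166 CPM in control cells, 312, 341 and 229.5 CPM in the NELFE knockdown, and 290.1 and 314 CPM in the NELFB knockdown. All knockdown libraries were above all control libraries, with NELFE knockdown replicate 3 the lowest of them. The log2 fold change was 0.69 (SE 0.12, adjusted p = 0.00194), an increase of 61.1%. NUF2, which pairs with it in the complex, was downregulated (log2 fold change -0.23, adjusted p = 0.0358), but kept the call in only 2 of the 8 fits that leave out 1 library, those without NELFE knockdown replicate 2 or 3 (adjusted p up to 0.098, edgeR). SPC25 showed a log2 fold change of -0.29 (adjusted p = 0.0715), but 23.1% of its transcript matches other places of the genome at 98% identity or more, so that reads from it may be missing. CENPF and CENPE, a kinetochore protein and a kinetochore motor, showed log2 fold changes of -0.22 (adjusted p = 0.0800) and -0.19 (adjusted p = 0.172).

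**Figure D3:**
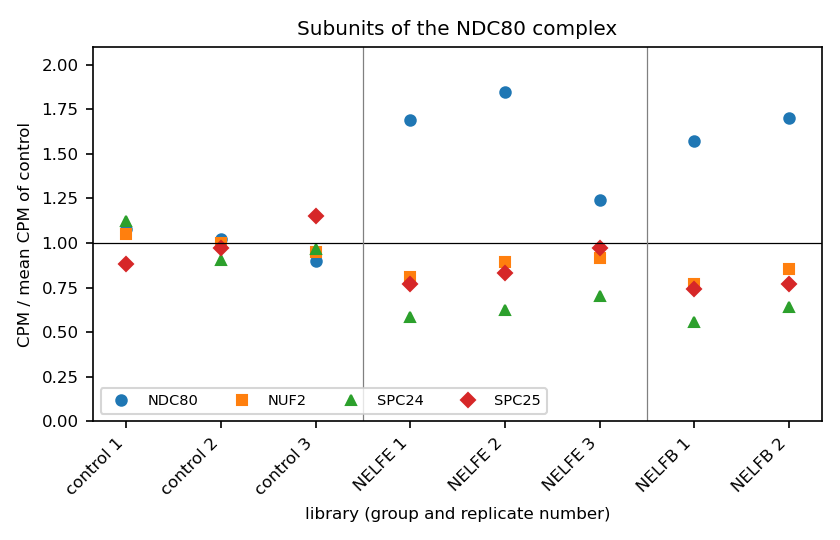
CPM of the 4 subunits of the NDC80 complex in each library, divided by the subunit's mean over the control libraries (line at 1). In every knockdown library NDC80 lies above 1 and NUF2, SPC24 and SPC25 lie below 1. Some control libraries of NUF2 and SPC25 also lie below 1, and SPC25 in NELFE knockdown replicate 3 lies within its control range.

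The subunits of the NDC80 complex were therefore compared within each library. The CPM ratio of NDC80 to NUF2 was 2.16, 2.16 and 1.99 in control cells, 4.39, 4.34 and 2.85 with the NELFE guide, and 4.29 and 4.19 with the NELFB guide. SPC24, the fourth subunit, belongs to the list of further centromere and kinetochore genes below. The ratio of NDC80 to SPC24 was 2.5, 2.94 and 2.42 in control cells, 7.52, 7.70 and 4.60 with the NELFE guide, and 7.37 and 6.88 with the NELFB guide. The ratio of NDC80 to SPC25 was 6.91, 5.94 and 4.41 in control cells. It was 12.4, 12.5 and 7.22 with the NELFE guide, and 11.9 and 12.4 with the NELFB guide. Each of these ratios was higher in every knockdown library than in every control library. For SPC25, NELFE knockdown replicate 3 was only just above control replicate 1. These ratios are of read counts and compare libraries, not the levels of the subunits. The gene next to NDC80 on the opposite strand, METTL4 (chromosome 18, 2537525 to 2571509), starts close to it and was examined after these values were seen; its log2 fold change was -0.13 (SE 0.08, adjusted p = 0.273).

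Among genes of spindle assembly and motors, 5 of 8 were downregulated, with a median log2 fold change of -0.31. The count was 6 without control replicate 1 or NELFE knockdown replicate 3, and 3 without control replicate 2. Of all tested genes, 12.7% were downregulated in the main fit, and 12.6%, 15.9% and 7.90% in these fits. HMMR, a microtubule-binding protein that brings TPX2 to spindle poles and is also known as the hyaluronan receptor RHAMM (ENSG00000072571.19, chromosome 5, 163460203 to 163491941), was at 218, 218 and 211 CPM in control cells, 95.6, 106 and 107 CPM in the NELFE knockdown, and 93.3 and 104 CPM in the NELFB knockdown. The control libraries lay close together and so did the knockdown libraries, NELFE knockdown replicate 3 among them, with a wide gap between. The log2 fold change was -1.095 (SE 0.06, adjusted p = 6.93e-06), a decrease of 53.2%, and HMMR had rank 3 by p among the 16367 tested genes. NUDCD2, which starts on the opposite strand beside HMMR (chromosome 5, 163446526 to 163460102) and was examined after these values were seen, showed a log2 fold change of -0.13 (SE 0.07, adjusted p = 0.198). Reads over 2.87% of the exon length of HMMR also overlap its antisense gene and are not counted.

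KIF2C, the kinesin that depolymerizes microtubules at centromeres, was at 167, 162 and 154 CPM in control cells, 112, 123 and 132 CPM in the NELFE knockdown, and 118 and 128 CPM in the NELFB knockdown. It did not overlap and fell by 0.40 on the log2 scale (SE 0.07, adjusted p = 0.00212). ASPM, which acts at the spindle poles, was at 290.2, 304 and 273 CPM in control cells, 202, 242 and 201 CPM in the NELFE knockdown, and 178 and 242 CPM in the NELFB knockdown. Its 2 NELFB libraries were further apart than its control libraries, and all knockdown libraries were below control (log2 fold change -0.44, SE 0.10, adjusted p = 0.00799). KIF11, the motor that pushes the spindle poles apart, and NUSAP1, a microtubule bundling protein, were downregulated, with log2 fold changes of -0.32 (adjusted p = 0.0208) and -0.30 (adjusted p = 0.0137). Both lost the call without control replicate 2, and KIF11 also without control replicate 3 or NELFB knockdown replicate 1 (adjusted p up to 0.0923 for KIF11 and 0.0633 for NUSAP1, edgeR). TPX2, which activates AURKA, and DLGAP5, which stabilizes spindle fibers, showed log2 fold changes of -0.22 (adjusted p = 0.107) and -0.16 (adjusted p = 0.123). KIF18A was at 54.4, 61.5 and 60.5 CPM in control cells, 51.0, 56.6 and 62.8 CPM in the NELFE knockdown, and 55.9 and 63.2 CPM in the NELFB knockdown, and its groups overlapped (log2 fold change -0.02, adjusted p = 0.876).

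TOP2A, the topoisomerase that untangles sister chromatids, had the most reads of the members, with 1079, 1098 and 1012 CPM in control cells, 786, 915 and 842 CPM in the NELFE knockdown, and 751 and 868 CPM in the NELFB knockdown. It did not overlap and fell by 0.35 on the log2 scale (SE 0.08, adjusted p = 0.00635). KIF4A, a chromosome-bound kinesin, showed a log2 fold change of -0.06 (adjusted p = 0.671). None of the 7 genes of cytokinesis passed the test with edgeR or DESeq2, and 4 of them had an unadjusted p under 0.05 with edgeR, as had 38.5% of all tested genes. EdgeR called 4 of the 7 lower without NELFE knockdown replicate 3, beside 15.9% of all tested genes. It called 1 each without control replicate 1, without NELFB knockdown replicate 2, without the control and NELFE libraries numbered 3, and with no filter on low counts. With the replicate number as a block, a fit described below, 5 of the 7 were called lower, beside 17.3% of all tested genes. In the main fit, the log2 fold changes of the 7 genes were -0.23 for ECT2, the activator of RHOA at the cleavage site, and -0.23 for ANLN, which binds the contractile ring. They were -0.21 for KIF20B and -0.205 for KIF14, both midbody motors, and -0.20 for PRC1, which bundles the central spindle. KIF23, the motor of the centralspindlin complex, showed -0.09, and KIF20A, which carries the passenger complex to the midzone, 0.005. Of PRC1, 34.3% of the exon length overlaps its antisense gene PRC1-AS1, where reads cannot be assigned.

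Each knockdown was next taken by itself, with the 3 control libraries shared between the comparisons. In the NELFE knockdown, 10 members were downregulated, 1 was upregulated and the median log2 fold change was -0.26, where 7.04% of 16852 tested genes were downregulated and 7.92% upregulated. In the NELFB knockdown, 17 members were downregulated, 1 was upregulated and the median was -0.33, where 8.88% and 10.6% of tested genes were called. The 10 members of the NELFE knockdown were CDK1, PLK1, CDC20, MAD2L1, AURKB, INCENP, HMMR, KIF2C, ASPM and TOP2A. Those of the NELFB knockdown were the same genes with CCNB2, CCNB1, BUB1, TTK, BUB3, NUF2 and NUSAP1, and the upregulated member was NDC80 in each. A call in one knockdown alone does not show that the knockdowns differ, and that difference is tested below. These counts moved with single libraries, and so did the counts over all genes. The NELFE count was 21 without NELFE knockdown replicate 3, 14 without control replicate 1, 5 without NELFE knockdown replicate 1 and 5 without control replicate 2, where 8.94%, 8.03%, 2.56% and 3.28% of all tested genes were downregulated. The NELFB count was 8 without control replicate 2, 21 without control replicate 1 and 21 without NELFE knockdown replicate 3, beside 4.79%, 12.6% and 11.5% of all tested genes. Leaving out a NELFB library left 1 library in that group, which was then assumed to vary like the other groups. Without NELFB knockdown replicate 1 or 2, the median log2 fold change of the members was -0.26 and -0.42, and NDC80 was not called. Calls from these fits rest on that assumption, which was not tested.

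**Figure D4:**
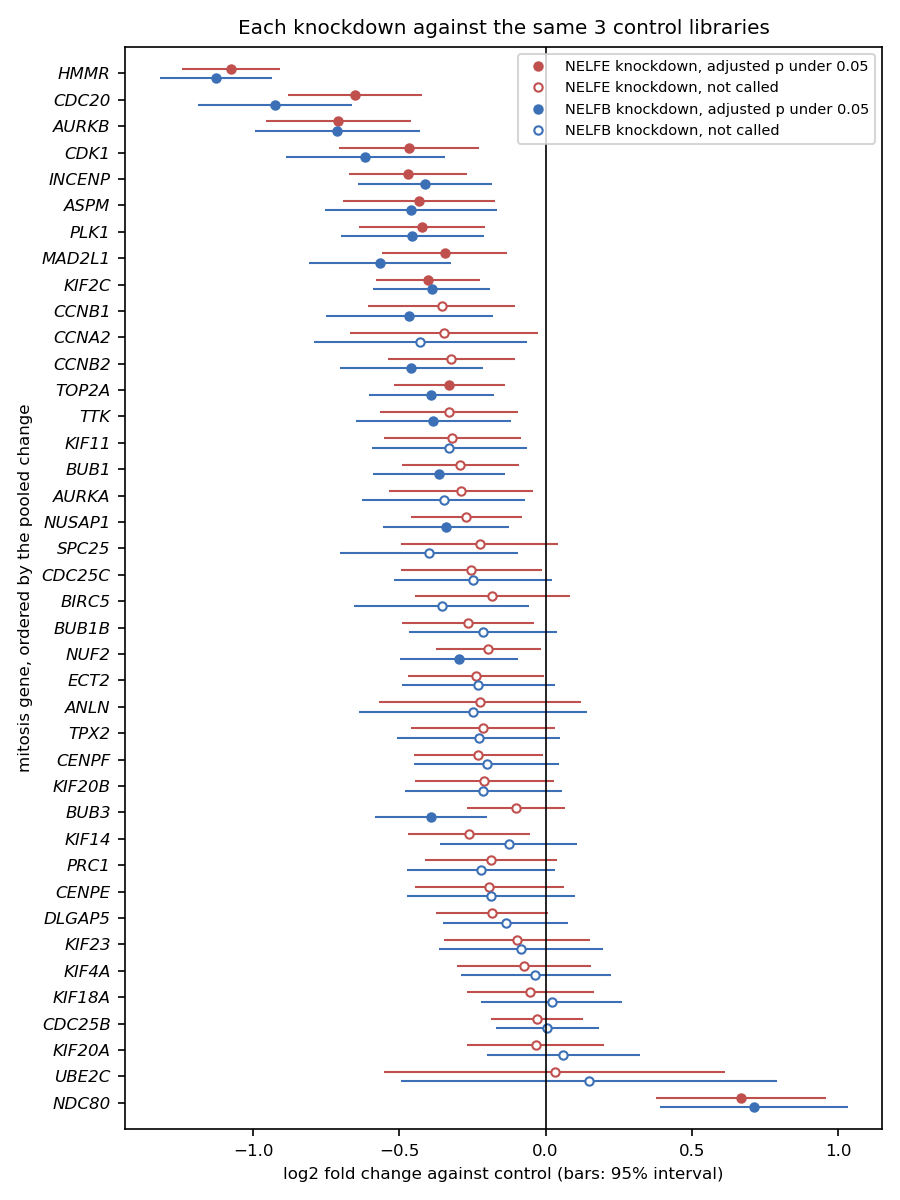
Log2 fold change against the 3 control libraries of each member in the NELFE knockdown (red) and the NELFB knockdown (blue), with 95% intervals; filled points have an adjusted p under 0.05. The 2 intervals of every member overlap, most points lie left of 0, and HMMR and NDC80 are at the 2 ends.

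Side by side, HMMR showed a log2 fold change of -1.08 in the NELFE and -1.13 in the NELFB knockdown, AURKB -0.71 and -0.71, CDC20 -0.65 and -0.93, and NDC80 0.67 and 0.71. The difference between the knockdowns was tested in the same model. No member was called in either direction with edgeR, and none with DESeq2. Over all tested genes, edgeR called 0.237% higher in the NELFE and 0.0771% higher in the NELFB knockdown. At an unadjusted p under 0.05 there were 2 members, BUB3 and CDC20, which at 2 of 40 is close to the 5.12% over all tested genes, so their values are given as a description. BUB3, a checkpoint protein of the kinetochore, was at 257, 276 and 279.6 CPM in control cells, 235, 261 and 264 CPM in the NELFE knockdown, and 201 and 212 CPM in the NELFB knockdown. Its NELFB libraries were the lowest, and the log2 difference was 0.29 (adjusted p = 0.566). The difference of CDC20 was 0.27 (adjusted p = 0.949). Without UBE2C, the 95% intervals of the 39 differences reached from -0.37 to 0.53.

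The searched promoter letters were found both in members that fell and in members that did not pass the test. CCAAT was in 88.2% of 17 downregulated members with a promoter sequence and in 68.8% of 16 that were not called. TTTGAA or TTTAAA was in 64.7% and 81.2%, and both elements together in 64.7% and 62.5%. KIF18A, KIF20A, KIF23 and KIF4A, with log2 fold changes between -0.09 and 0.005, each held a CCAAT and a CHR match, while 5 members held neither in this window: KIF2C and NUF2, which were downregulated, CDC25B and CDC25C, which were not called, and NDC80. Promoters of the DNA replication genes compared below held CCAAT in 72.2% of 18 and TTTGAA or TTTAAA in 16.7%, and TTTCCCGC in 33.3%. A match is a description of the letters and does not show binding. The downregulated members had a median control level of 225 TPM and those not called one of 155 TPM, and over the 40 members the Spearman correlation of log2 fold change and control TPM was -0.31. The points of this correlation share all libraries, and a gene with more reads passes the test at a smaller change.

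The rest of the mitotic machinery was taken from lists of 122 further genes. Of these 51 were downregulated and 1 upregulated in the combined comparison, with a median log2 fold change of -0.25, beside the 12.7% of all tested genes that were downregulated and the 19.1% of those with at least the control level of the lowest member other than UBE2C. The 51 were 60 without control replicate 1, 74 without NELFE knockdown replicate 3, 29 without control replicate 2, 30 without control replicate 3 and 32 without NELFB knockdown replicate 1, where 12.6%, 15.9%, 7.90%, 8.91% and 8.86% of all tested genes were downregulated. The counts of the single lists below are to be read against the same shares. Of 25 further centromere and kinetochore genes, 12 fell (median -0.32). The count was 12 without control replicate 1, 19 without NELFE knockdown replicate 3, 6 without control replicate 2, and 7 without control replicate 3 or either NELFB library. CENPH, a subunit of the centromere-bound network, fell by 0.80, SPC24 by 0.68 and PMF1, of the MIS12 complex, by 0.69 on the log2 scale (adjusted p = 0.000174, 0.000636 and 0.00310). SPC24 was at 79.6, 64.2 and 68.6 CPM in control cells, 41.4, 44.2 and 49.9 CPM in the NELFE knockdown, and 39.4 and 45.6 CPM in the NELFB knockdown, without overlap. Of 22 cohesin, condensin and separase genes, 9 fell (median -0.27). The count was 14 without control replicate 1 or NELFE knockdown replicate 3, 6 without control replicate 2 or 3, and 7 without NELFE knockdown replicate 1 or NELFB knockdown replicate 1. NCAPD2 and NCAPH, of condensin I, showed log2 fold changes of -0.505 and -0.61, and the separase ESPL1 one of -0.50 (adjusted p = 0.000539, 0.000739 and 0.00204).

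Of 23 centrosome and further spindle genes, 13 fell (median -0.25). The count was 13 without control replicate 1, 15 without NELFE knockdown replicate 3, and 8 without control replicate 2, control replicate 3, NELFE knockdown replicate 1 or NELFB knockdown replicate 1. TUBGCP3, of the gamma-tubulin ring, the kinesin KIF18B and PLK4, the kinase of centriole duplication, showed log2 fold changes of -0.61, -0.57 and -0.58 (adjusted p = 0.000254, 0.00144 and 0.00240). Of 20 genes of further mitotic control and cytokinesis, 9 fell and 1 rose (median -0.33). The 9 were again 9 without control replicate 1, 15 without NELFE knockdown replicate 3, and 5 without control replicate 2 or NELFB knockdown replicate 1. The leading decreases were KNTC1, a recruiter of checkpoint proteins, PKMYT1, an inhibitory kinase of CDK1, and CKS1B, a CDK subunit, with log2 fold changes of -0.75, -0.90 and -0.58 (adjusted p = 0.000202, 0.00115 and 0.00116). The gene that rose was MAD1L1, the checkpoint partner of MAD2L1, which is named here because of its direction, after its values were seen. It was at 20.6, 18.4 and 20.2 CPM in control cells, 24.4, 24.3 and 24.2 CPM in the NELFE knockdown, and 23.9 and 24.6 CPM in the NELFB knockdown, without overlap (log2 fold change 0.30, SE 0.08, adjusted p = 0.0135), and it was not called without control replicate 2 (adjusted p = 0.0774) or with no filter on low counts (adjusted p = 0.0620, edgeR).

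The anaphase-promoting complex had the median nearest to 0 among these lists. Of its 17 genes, 4 fell (median -0.06), or 23.5%, which is near the 19.1% given above, and as many without control replicate 1 or NELFE knockdown replicate 3, 2 without control replicate 2 and 1 without control replicate 3. UBE2S, the enzyme that extends ubiquitin chains for it, fell by 0.72 on the log2 scale (adjusted p = 0.00153), and the subunits ANAPC11 and ANAPC1 by 0.30 and 0.32 (adjusted p = 0.0135 and 0.0181). Of 15 transcription factors that act on G2 and mitosis genes, 4 fell (median -0.17), or 26.7%. The count was 8 without control replicate 1, 7 without NELFE knockdown replicate 3, and 2 with any other library left out. MYBL2 was at 317, 343 and 388 CPM in control cells, 226, 231 and 307 CPM in the NELFE knockdown, and 205 and 235 CPM in the NELFB knockdown. All knockdown libraries were below control, with NELFE knockdown replicate 3 nearest to it (log2 fold change -0.535, SE 0.12, adjusted p = 0.00685). E2F1 and FOXM1 showed log2 fold changes of -0.51 (adjusted p = 0.0118) and -0.39 (adjusted p = 0.0310).

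Genes of DNA replication were compared with the mitosis genes in the same way. Of 22 DNA replication genes, 13 fell, with a median log2 fold change of -0.41. The count was 14 without control replicate 1, 19 without NELFE knockdown replicate 3, 10 without control replicate 2, 9 without control replicate 3, and 11 without NELFE knockdown replicate 1 or either NELFB library. CDT1, the licensing factor of replication origins, and MCM2 and MCM6, subunits of the replicative helicase, showed log2 fold changes of -0.80, -0.54 and -0.62 (adjusted p = 0.000563, 0.00196 and 0.00348). Relative to the control mean, the median replication gene was at -0.49, -0.43 and -0.08 in NELFE knockdown replicates 1, 2 and 3, at -0.56 and -0.49 in the NELFB knockdown, and at -0.17, 0.01 and 0.16 in the control libraries. NELFE knockdown replicate 3 was thus within the control range for these genes, and it was also the knockdown library in which the mitosis genes were nearest to control. The part of these differences between libraries in the results on mitosis genes was not tested.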

How the data were processed

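Polyadenylated RNA of the 8 HAP1 libraries was sequenced as single-end reads of 65 bases. According to the methods of the study, replicates were independent. Per the labels, FastQC 0.11.6 and STAR 2.5.4a (GRCh38) were run on the reads, and the authors deposited raw counts, the reads that fell on each gene of GENCODE v24 without regard to strand; reads shared by genes were lost. Symbols and exon lengths came from GENCODE v44, which matched 97.35% of genes with reads. The tests used edgeR 4.0.16 under R 4.3.3 (robust quasi-likelihood fit after TMM scaling and filterByExpr, adjusted by Benjamini-Hochberg over all tested genes), with DESeq2 1.42.0, the tool of the study, as an alternative. All 8 libraries entered each main fit. The members and lists were chosen with earlier results of these data known. Values per library are given for the 14 members with the smallest p and those with the 3 highest and 3 lowest TPM, and 3 genes with the smallest p are named from each further list. MAD1L1 was named, and BUB3, MAD1L1, SPC24 and MYBL2 were given per library, after their values were seen. Promoters came from RefSeq. A listed marker gene is not reported here.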

Additional observations from a re-analysis of the deposited data

How the results depend on the processing

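The median log2 fold change of the members stayed negative under every alternative tried, from -0.34 to -0.23 in the combined comparison, -0.33 to -0.20 in the NELFE knockdown and -0.42 to -0.26 in the NELFB knockdown with 1 library left out at a time. The number of members called moved more, mostly together with the number over all tested genes. With 1 library left out, between 11 and 28 members were downregulated in the combined comparison, 5 to 21 in the NELFE knockdown and 2 to 21 in the NELFB knockdown, and 0 to 1 were upregulated in the NELFB knockdown. The 2 and the 0 come from fits with a single NELFB library, assumed to vary like the other groups. What part that assumption has in these ends was not tested. For the NELFE knockdown, DESeq2 called 16 members lower, edgeR without a filter on low counts 19, and edgeR without the control and NELFE libraries numbered 3, an alternative chosen after seeing the data, 21, beside 8%, 4.61% and 8.77% of all tested genes. The 4.61% is over 33854 unfiltered genes, while the 7.04% of the main fit is over 16852. In number, 1562 genes were called lower without the filter and 1186 in the main fit. Of the 19 members downregulated in the combined comparison, 11 were called in all 16 alternatives: CDK1, PLK1, CCNB2, CDC20, MAD2L1, AURKB, INCENP, HMMR, KIF2C, ASPM and TOP2A. Of the 10 of the NELFE knockdown these were CDC20, AURKB, INCENP, HMMR and KIF2C, and of the 17 of the NELFB knockdown CDC20 and HMMR. No downregulated member changed sign, and no member was called between the knockdowns in any alternative. The sign turned for members near 0. With 1 library left out, UBE2C ranged from -0.133 to 0.248, negative without control replicate 1 and without NELFE knockdown replicate 3 (-0.008), and KIF18A from -0.079 to 0.021, positive without control replicate 2, control replicate 3 or NELFE knockdown replicate 1. KIF20A was negative in 6 of the 16 alternatives and CDC25B positive in 1. The cause of these changes was not tested.

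Libraries of different groups share replicate numbers. Deviations from the group means of same-numbered libraries had correlations of 0.35, 0.07 and 0.56 between control and NELFE knockdown. They were -0.03 and -0.03 between control and NELFB knockdown, and 0.12 and 0.24 between the knockdowns. Control and NELFE libraries of different numbers reached from -0.449 to 0.289. The control and NELFE pairs numbered 1 and 3 were above all of these and the pair numbered 2 was not, so the numbers were not taken as pairs. Whether a number marks shared handling was not tested. With the replicate number as a block, 32 members were downregulated in the combined comparison, 29 in the NELFE and 24 in the NELFB knockdown, and calls rose over all tested genes as well, to 17.3%, 14% and 13.7%. Of the 7 genes of cytokinesis, 5 were then called lower in the combined comparison. Without the block and with the filter on low counts, as in the report, the smallest decrease called among the members in the combined comparison was 15% (NUF2), a value that applies to that fit alone.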
